A study of Mus musculus with 9 samples.

Results

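Cholesterol metabolism was examined in primary mouse hepatocytes through 31 genes of sterol synthesis, uptake, transport and sensing, out of 54532 genes in the deposited expression table. The genes were chosen by name and each matched 1 row of the table. They comprise 18 enzymes from acetyl-CoA to cholesterol, with 7 in the early mevalonate pathway and 11 from squalene onwards. The others are 4 genes that control the transcription factor SREBP-2, 5 of uptake and intracellular transport, and 4 of esterification and efflux.

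The study sequenced RNA from 9 libraries of hepatocytes in 3 groups of 3. CKO Tu cells came from mice whose floxed COX-2 alleles (COX-2 fl/fl) were combined with Alb-Cre, a recombinase driven by the hepatocyte-active albumin promoter, and received tunicamycin (Tu). WT Tu cells received the same drug and came from littermates that carry the floxed alleles without the Cre, and WT DMSO cells came from the same kind of littermate and received only the solvent. Thus both genotypes are COX-2 fl/fl on a C57BL/6 background, and no group holds knockout cells without tunicamycin. The labels describe male, age-matched mice and give no age in weeks. Cells were kept for 2 hours in 1% serum and then for 24 hours with tunicamycin at 6 μmol/L or with DMSO. Tunicamycin stops N-linked sugars from being added to new proteins, and unfolded proteins then build up in the endoplasmic reticulum (ER). COX-2, encoded by Ptgs2, makes prostaglandin precursors.

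Cells make cholesterol in the ER by a long chain of enzymes that begins with acetyl-CoA, passes through mevalonate, farnesyl diphosphate and squalene, and ends with reduction of a sterol double bond. The pathway is switched on by SREBP-2, a membrane-bound transcription factor that the escort protein Scap carries from the ER to the Golgi for cleavage when sterols are scarce, while Insig proteins hold the pair back in the ER when sterols are plentiful. Hepatocytes also take cholesterol up from lipoproteins, release it from lysosomes, store it as esters and pass it to high-density lipoprotein.

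Values are FPKM, in which the fragments of a gene are divided by its length and by a library size, so levels can be compared between genes. Each library held between 14897358 and 16001484 fragments assigned to genes. The Ptgs2 transcript had 1, 1 and 2 fragments in CKO Tu, 8, 5 and 5 in WT Tu, and 0, 13 and 8 in WT DMSO, so it was near the detection limit in all groups. All 5 ER stress genes used as a check of the drug were called higher in WT Tu than in WT DMSO, beside 17.7% of all genes tested. The chaperone gene Hspa5 differed by 3.20 ± 0.07 (SE; adjusted p = 1.8e-08) on the log2(FPKM + 1) scale. Between CKO Tu and WT Tu, 2 of the 5 were called lower and 3 were not called, where 19.6% of all genes tested were called lower. The 2 were Ddit3 (-0.56 ± 0.15, SE; adjusted p = 0.017) and Dnajb9 (-0.47 ± 0.10, SE; adjusted p = 0.0065). Xist, transcribed from a silenced X chromosome, had 0, 3 and 0 fragments in CKO Tu and between 20659 and 33657 in each WT library, while 4 Y-linked genes had 3633, 3489 and 3486 fragments in CKO Tu and 0 in every WT library. The sex-linked transcripts therefore go against the label for the WT libraries. Every difference given below between CKO Tu and a WT group is also a difference between these sex-linked patterns, and genotype and sex-linked pattern cannot be told apart. All 6 liver genes listed for sex-biased expression were called between CKO Tu and WT Tu, 3 higher and 3 lower. WT Tu replicate 1 had the highest share of mitochondrial fragments, 6.87%, where WT Tu replicates 2 and 3 had 5.25% and 5.90%.

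The 8 hepatocyte markers were all expressed. Between CKO Tu and WT Tu, 7 of them were higher and 1, Alb, was lower, where 18.7% of all genes tested were called higher and 19.6% lower. Between WT Tu and WT DMSO, 2 were lower and 6 were not called, where 17.7% of all genes tested were called higher and 15.9% lower. Markers of endothelial cells, 8 genes of which 4 could be tested, summed to 2.96 to 3.34 FPKM in CKO Tu, 3.85 to 5.25 in WT Tu and 10.2 to 11.2 in WT DMSO, with all 4 lower in WT Tu than in WT DMSO and 1 lower in CKO Tu than in WT Tu. Of the 7 Kupffer cell markers only Cd68, which other cells also express, passed the expression filter, and Vsig4 was at 0 in every library. The 7 summed to 92.5 to 106.6 FPKM in CKO Tu, 96.8 to 114.7 in WT Tu and 74.03 to 91.1 in WT DMSO. Stellate markers summed to 6.45 to 7.13 FPKM in CKO Tu, 4.90 to 5.67 in WT Tu and 5.34 to 6.42 in WT DMSO. Most of that sum was Ecm1, at means of 4.89, 4.96 and 5.66 FPKM in the same order of groups, and Reln, at 1.9, 0.121 and 0.131 FPKM, while the means of Lrat, Des, Pdgfrb, Acta2 and Col1a1 were at most 0.0858 FPKM. Cholangiocyte markers summed to 8.41 to 9.67 FPKM in CKO Tu, 5.28 to 7.66 in WT Tu and 7.20 to 10.2 in WT DMSO, of which Sox9 made up means of 8.25, 5.57 and 7.74 FPKM. Lymphocyte markers summed to at most 0.131 FPKM in any library. In these bulk libraries, fewer cells of a type and less RNA per cell cannot be told apart, and the part of other cells in the results below was not tested.

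Most of the sterol pathway was transcribed in these cells. FPKM reached at least 1 in all 9 libraries for 29 of the 31 genes. The exceptions were Mylip, a ubiquitin ligase for lipoprotein receptors, with 19, 8 and 22 fragments summed over the CKO Tu, WT Tu and WT DMSO libraries, and Soat1, the cholesterol acyltransferase of many non-hepatic tissues, with 7, 12 and 10 summed fragments. Neither could be compared at this depth. Of the 18 synthesis enzymes, Msmo1 had the highest mean in each group, with 35.6 ± 1.86 FPKM in CKO Tu, 46.4 ± 6.3 FPKM in WT Tu and 34.5 ± 0.730 FPKM in WT DMSO (SD, n = 3). Fdps had the lowest mean in both WT groups, at a level made uncertain by overlapping genes, as given below. Its means were 2.97 ± 0.400 FPKM in CKO Tu, 1.45 ± 0.252 FPKM in WT Tu and 1.12 ± 0.0863 FPKM in WT DMSO (SD, n = 3). Mvk had the lowest in CKO Tu, with 2.38 ± 0.490 FPKM in CKO Tu, 3.07 ± 0.870 FPKM in WT Tu and 4.88 ± 0.392 FPKM in WT DMSO (SD, n = 3). The summed level of the 18 enzymes was 274 ± 6.19 FPKM in CKO Tu, 286 ± 9.03 FPKM in WT Tu and 269.7 ± 5.90 FPKM in WT DMSO (SD, n = 3), a narrow range beside the changes of single enzymes in both directions.

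**Figure D1:**
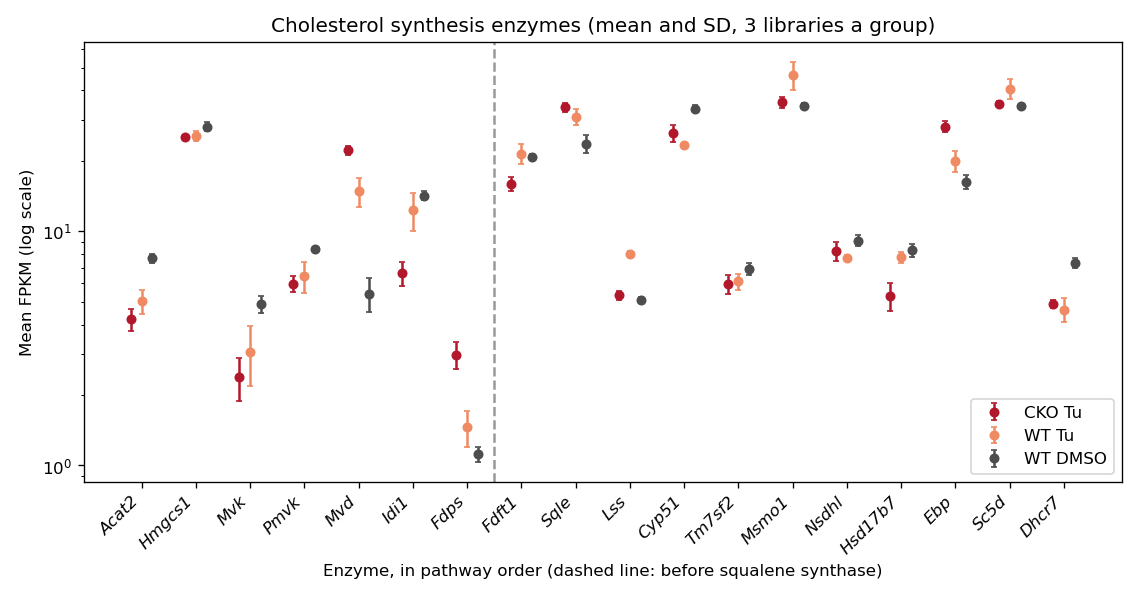
Mean FPKM on a log axis for the 18 synthesis enzymes in pathway order, with points for CKO Tu, WT Tu and WT DMSO and error bars for the SD of 3 libraries. Mvd stands at 22.2, 14.9 and 5.43 FPKM in that order of groups, and Lss and Msmo1 are highest in WT Tu.

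Comparing WT Tu with WT DMSO asks how tunicamycin changes the pathway in cells without the Cre. Enzymes moved in opposite directions: the decarboxylase gene Mvd was 2.74 times as high in WT Tu, and Lss, Msmo1, Sqle, Ebp and Sc5d were also higher, while Acat2, Mvk, Pmvk, Cyp51, Nsdhl and Dhcr7 were lower. The SREBP-2 gene Srebf2 and its escort Scap were lower, and both Insig genes were higher. Of the 29 genes tested, 9 were higher, 9 lower and 11 not called, a share of 62.1% called beside 33.6% of all 11858 genes tested (limma on log2(FPKM + 1), Benjamini-Hochberg adjusted p below 0.05 over all genes tested). Over all genes tested, 17.7% were called higher and 15.9% lower. The libraries of both groups did not overlap for 20 of the 29, beside 46.7% of all genes tested. The median difference was -0.09 on the log2 scale, beside -0.0015 for all genes tested, so the genes did not shift together in either direction. Scaling to total fragments moved the median of all genes by -0.11 and gave a share of called genes that were higher of 31.5%, where the share is 52.7% on the deposited scale, and 6 of the 29 genes were then called higher and 11 lower. Without WT DMSO replicate 1, or without WT DMSO replicate 3, 5 genes were called lower. Ebp, Insig2, Sc5d, Mvk, Nsdhl, Pmvk, Scap and Scarb1 each lost the call under at least 1 other normalization, filter or model of all libraries (adjusted p between 0.051 and 0.25).

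Comparing CKO Tu with WT Tu sets hepatocyte COX-2 deletion, together with the differing sex-linked pattern, against WT under tunicamycin. Stard4, Insig2, Fdps, Abca1, Mvd and Ebp were higher in CKO Tu. Idi1, Npc1, Lss, Hsd17b7, Fdft1, Msmo1, Npc2, Srebf2 and Sc5d were lower. With 14 genes not called, the share called was 51.7% of 29, beside 38.3% of all genes tested, of which 18.7% were higher and 19.6% lower. The libraries did not overlap for 17 of 29 genes, beside 51.2% of all genes tested. The median difference was -0.05, beside -0.0021 for all genes tested. The largest differences upwards and downwards were those of Stard4 (1.00 ± 0.14, SE) and Idi1 (-0.80 ± 0.13, SE).

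**Figure D2:**
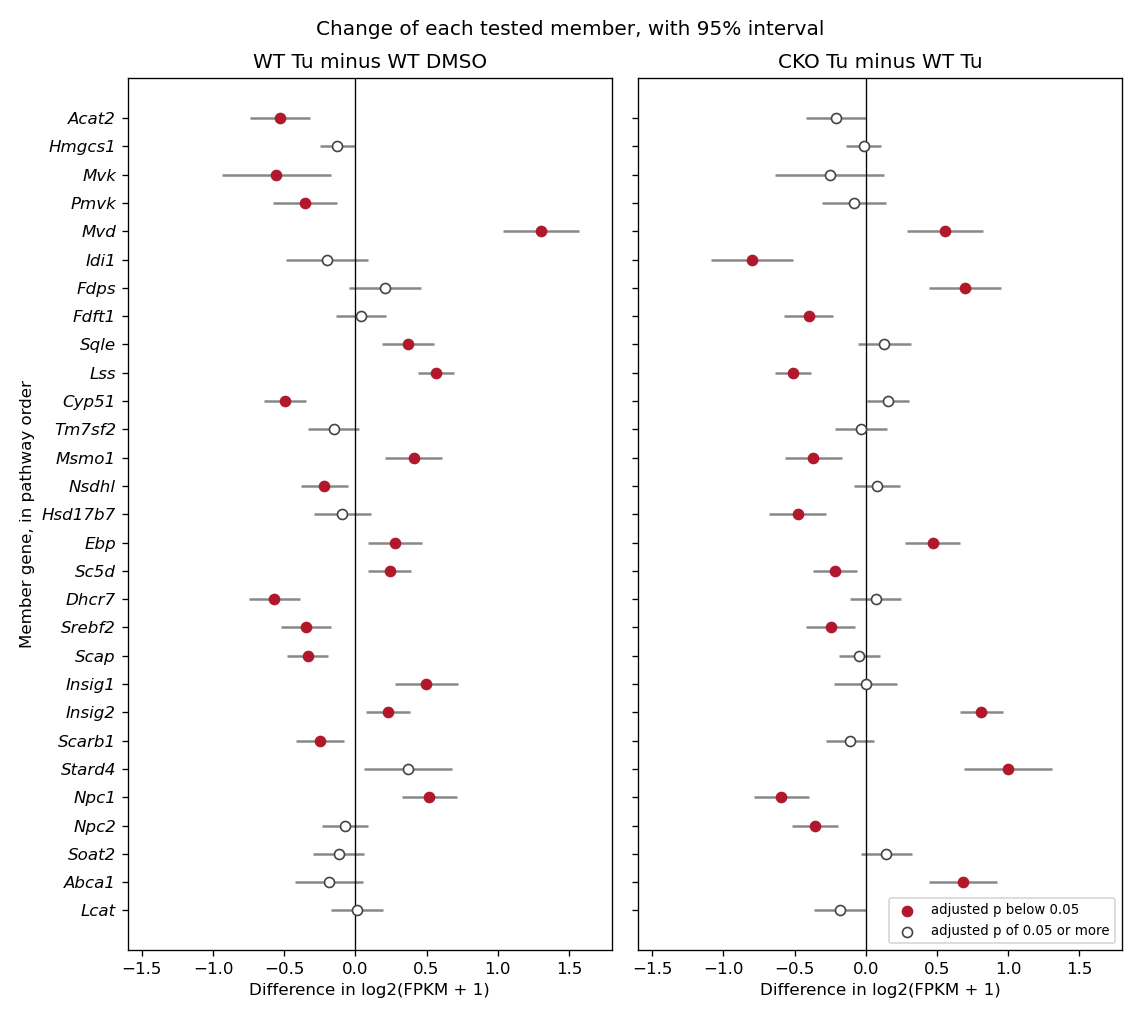
Difference in log2(FPKM + 1) for the 29 tested genes in pathway order, WT Tu minus WT DMSO on the left and CKO Tu minus WT Tu on the right, with 95% intervals of each gene taken singly. Filled points mark an adjusted p below 0.05: 9 higher and 9 lower on the left, 6 higher and 9 lower on the right. Both panels use the WT Tu libraries.

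In the early mevalonate pathway, WT Tu had 1 enzyme higher and 3 lower than WT DMSO, and CKO Tu had 2 higher and 1 lower than WT Tu. The shares called were 57.1% and 42.9% of 7, beside 33.6% and 38.3% of all genes tested. Mvd had 21.2, 22.9 and 22.5 FPKM in CKO Tu, 12.5, 16.5 and 15.6 FPKM in WT Tu, and 6.45, 4.89 and 4.94 FPKM in WT DMSO. The Mvd enzyme decarboxylates mevalonate diphosphate to an isoprenoid unit, and its gene (ENSMUSG00000006517, mm10 chromosome 8, 122433601 to 122443422) had 3 levels with no overlap. The difference was 1.30 ± 0.12 (SE; adjusted p = 6.6e-05) between WT Tu and WT DMSO and 0.56 ± 0.12 (SE; adjusted p = 0.0061) between CKO Tu and WT Tu. Idi1 had 5.97, 6.39 and 7.47 FPKM in CKO Tu, 13.99, 9.72 and 13.3 FPKM in WT Tu, and 14.2, 14.8 and 13.6 FPKM in WT DMSO. Idi1, the isomerase that makes the other isoprenoid unit (ENSMUSG00000058258, mm10 chromosome 13, 8885501 to 8892451), was low in all 3 CKO Tu libraries, while the WT groups overlapped. It differed by -0.80 ± 0.13 (SE; adjusted p = 0.0014) between CKO Tu and WT Tu, and by -0.20 ± 0.13 (SE; adjusted p = 0.25) between WT Tu and WT DMSO. With the GC trend removed, the difference between WT Tu and WT DMSO was -0.35 and passed the threshold (adjusted p = 0.039). Fdps had 3.1, 3.3 and 2.53 FPKM in CKO Tu, 1.67, 1.18 and 1.51 FPKM in WT Tu, and 1.19, 1.14 and 1.02 FPKM in WT DMSO. Fdps, which joins these units to farnesyl diphosphate, was higher in each CKO Tu library than in any WT library, at a low level. It differed by 0.70 ± 0.11 (SE; adjusted p = 0.0014) between CKO Tu and WT Tu. Fdps shares 7512 bases of its span with the same-strand gene Gm43738, which is listed at 0. It shares 104 bases with a same-strand small nuclear RNA gene, Gm22935. The mean of Gm22935 over all libraries was 5.69 FPKM beside 1.85 FPKM for Fdps. As FPKM is divided by gene length, these values do not compare numbers of fragments. Mvd shares its span with Gm20388 on the opposite strand, also listed at 0. Strand cannot tell reads apart where genes of the same strand overlap, as for Fdps. For opposite strands, as for Mvd, the strand setting of the counting would be needed and is not given in the sources used here. These levels are uncertain to that extent. The same holds for other members whose spans overlap a listed gene. On the same strand, Srebf2 shares 2110 bases with Gm49502 and Scarb1 2764 bases with Gm42633. On the opposite strand, Lss shares 11268 bases with 4930483K19Rik, Npc1 4908 with Gm15956 and Lcat 3832 with Gm16156.

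Acat2, Mvk and Pmvk, early steps of the pathway, were lower in WT Tu than in WT DMSO. Acat2 had 4.44, 3.7 and 4.51 FPKM in CKO Tu, 4.39, 5.12 and 5.59 FPKM in WT Tu, and 8.04, 7.51 and 7.47 FPKM in WT DMSO. Acat2, the cytosolic thiolase that opens the pathway, differed by -0.53 ± 0.09 (SE; adjusted p = 0.0026) between WT Tu and WT DMSO, with no overlap. Mvk had 1.81, 2.68 and 2.65 FPKM in CKO Tu, 2.08, 3.7 and 3.42 FPKM in WT Tu, and 4.43, 5.08 and 5.14 FPKM in WT DMSO. Mvk, mevalonate kinase, was lowest in CKO Tu replicate 1 and WT Tu replicate 1, and all 3 WT DMSO libraries were above the rest. The kinase differed by -0.56 ± 0.17 (SE; adjusted p = 0.033) between WT Tu and WT DMSO, a call lost without WT Tu replicate 1 or any WT DMSO library (adjusted p between 0.053 and 0.095). Pmvk had 5.52, 5.95 and 6.43 FPKM in CKO Tu, 5.29, 6.9 and 7.08 FPKM in WT Tu, and 8.53, 8.32 and 8.43 FPKM in WT DMSO. Pmvk, the next kinase, showed the same separation of WT DMSO, with a difference of -0.35 ± 0.10 (SE; adjusted p = 0.023) between WT Tu and WT DMSO and an adjusted p between 0.056 and 0.062 when any WT DMSO library was left out. Between CKO Tu and WT Tu these 3 genes overlapped and were not called (-0.21 ± 0.09, -0.25 ± 0.17 and -0.08 ± 0.10 for Acat2, Mvk and Pmvk, SE). They passed the threshold without WT Tu replicate 1, with differences of -0.29, -0.44 and -0.20 and adjusted p of 0.028, 0.025 and 0.041. Hmgcs1, the cytosolic synthase that forms the direct precursor of mevalonate, had 24.4 to 29.4 FPKM in all libraries and differed by -0.13 ± 0.05 (SE; adjusted p = 0.1) between WT Tu and WT DMSO, which did not pass the threshold. It was called lower in WT Tu with the GC trend removed (-0.26, adjusted p = 0.0022), with total-fragment scaling (-0.25, adjusted p = 0.0054) and with quantile normalization (-0.19, adjusted p = 0.029). Against WT DMSO, CKO Tu was also called lower in 4 alternatives (adjusted p between 0.0014 and 0.033). Without WT Tu replicate 1 it was called lower in WT Tu, with a difference of -0.16 (adjusted p = 0.036).

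Promoter sequences are shown for the Hmgcs1 gene, which alone held the sterol motif searched for, for Mvd and Idi1, which had the largest differences among the enzymes in the 2 comparisons, and for Insig2, which had the largest CKO Tu rise among genes with a window. They come from RefSeq on GRCm38.p6, the mm10 assembly, and run 5′ to 3′ on the strand of the gene from 250 bases before the start to 50 after it. Capitals mark TCACNCCAC, a form of the sterol regulatory element bound by SREBP, and CCAAT, the NF-Y motif, on either strand. The windows are chr13:119690101-119690400 on the plus strand for Hmgcs1, chr8:122443373-122443672 on the minus strand for Mvd, chr13:8885356-8885655 on the plus strand for Idi1, and chr1:121332540-121332839 on the minus strand for Insig2.
Hmgcs1: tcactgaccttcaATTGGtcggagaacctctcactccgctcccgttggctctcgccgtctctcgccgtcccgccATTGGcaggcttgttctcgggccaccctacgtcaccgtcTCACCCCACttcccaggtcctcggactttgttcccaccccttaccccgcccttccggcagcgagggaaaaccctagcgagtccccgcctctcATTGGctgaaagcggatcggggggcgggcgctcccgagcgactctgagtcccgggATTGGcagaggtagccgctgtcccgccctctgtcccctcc
Mvd: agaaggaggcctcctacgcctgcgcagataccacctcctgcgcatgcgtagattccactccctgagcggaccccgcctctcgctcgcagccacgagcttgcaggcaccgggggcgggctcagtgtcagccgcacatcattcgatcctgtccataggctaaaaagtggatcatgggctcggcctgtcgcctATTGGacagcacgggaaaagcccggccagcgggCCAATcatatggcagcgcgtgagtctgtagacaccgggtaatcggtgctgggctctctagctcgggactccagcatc
Idi1: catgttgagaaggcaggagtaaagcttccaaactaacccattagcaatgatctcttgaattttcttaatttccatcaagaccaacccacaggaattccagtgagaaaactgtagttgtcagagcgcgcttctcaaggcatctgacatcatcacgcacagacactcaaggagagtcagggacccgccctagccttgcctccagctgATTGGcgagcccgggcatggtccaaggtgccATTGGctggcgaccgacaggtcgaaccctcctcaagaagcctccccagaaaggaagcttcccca
Insig2: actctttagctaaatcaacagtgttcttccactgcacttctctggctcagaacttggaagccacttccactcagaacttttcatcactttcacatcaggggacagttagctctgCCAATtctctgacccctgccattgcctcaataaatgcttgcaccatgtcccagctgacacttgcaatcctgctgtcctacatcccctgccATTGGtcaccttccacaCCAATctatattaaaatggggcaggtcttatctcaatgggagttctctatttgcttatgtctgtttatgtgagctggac

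Windows of 300 bases matched 24 of the 31 genes, some with several starts. The unmatched genes were Sqle, Fdft1, Fdps, Scarb1, Npc1, Stard4 and Soat2. The motif TCACNCCAC was found in 1 of the 24, Hmgcs1, where it begins 137 bases before the start, beside 1.44% of all 27025 genes with a window. CCAAT was found in 21 of the 24, beside 41.1% of all genes. CACGTG, the E-box, was found in 6 of the 24, beside 8.09% of all genes. The ER stress response element, CCAAT and CCACG separated by 9 bases, was found in 0 of the 24, beside 0.137% of all genes, and its matches would also count as CCAAT. Both strands were searched for each motif. Only exact matches were counted, so forms of the sterol regulatory element with other letters were missed. A gene without a match may still carry such a form. The Mvd and Idi1 windows above each hold CCAAT at 2 places, and the Insig2 window printed holds it at 3. Insig2 has 2 further windows, at other starts, in which none of the motifs was found.

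From squalene to cholesterol, WT Tu had 5 enzymes higher and 3 lower than WT DMSO, and CKO Tu had 1 higher and 5 lower than WT Tu. Called shares were 72.73% and 54.55% of 11, beside 33.6% and 38.3% of all genes tested. Lss had 5.12, 5.31 and 5.56 FPKM in CKO Tu, 8.04, 8.23 and 7.77 FPKM in WT Tu, and 5.11, 5.21 and 4.92 FPKM in WT DMSO. Lss, which closes squalene epoxide into lanosterol (ENSMUSG00000033105, mm10 chromosome 10, 76531588 to 76557138), was higher in each WT Tu library than in any other, and the CKO Tu and WT DMSO libraries overlapped. It differed by 0.57 ± 0.06 (SE; adjusted p = 0.0001) between WT Tu and WT DMSO and by -0.51 ± 0.06 (SE; adjusted p = 0.0002) between CKO Tu and WT Tu. Msmo1 had 33.4, 36.7 and 36.6 FPKM in CKO Tu, 53.7, 42.4 and 43.2 FPKM in WT Tu, and 34.05, 35.3 and 34.1 FPKM in WT DMSO. Msmo1, the methyl sterol oxidase, was likewise highest in the WT Tu libraries, most of all in replicate 1, with differences of 0.41 ± 0.09 (SE; adjusted p = 0.0075) and -0.37 ± 0.09 (SE; adjusted p = 0.011) in the same order of comparisons. Sc5d, the sterol desaturase late in the pathway, had 34.9 ± 1.000 FPKM in CKO Tu, 40.8 ± 3.9 FPKM in WT Tu and 34.3 ± 0.409 FPKM in WT DMSO (SD, n = 3). It was called higher in WT Tu than in WT DMSO (0.24 ± 0.07, SE) and lower in CKO Tu than in WT Tu (-0.21 ± 0.07, SE), close to the threshold in both. The first call was lost without any WT DMSO library (adjusted p between 0.054 and 0.072) and the second without WT Tu replicate 2 or any CKO Tu library (between 0.052 and 0.11), and with no filter, quantile normalization or total-fragment scaling (between 0.063 and 0.082).

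Other later enzymes did not share this peak in WT Tu. Hsd17b7 had 4.74, 6.11 and 5.06 FPKM in CKO Tu, 7.57, 7.47 and 8.19 FPKM in WT Tu, and 8.59, 7.71 and 8.7 FPKM in WT DMSO. Hsd17b7, a sterol ketoreductase, was lower in every CKO Tu library than in any WT library, with a difference of -0.48 ± 0.09 (SE; adjusted p = 0.0031) against WT Tu. Fdft1 had 15.3, 15.4 and 17.3 FPKM in CKO Tu, 23.9, 20.8 and 19.9 FPKM in WT Tu, and 21.6, 20.8 and 20.3 FPKM in WT DMSO. Fdft1, squalene synthase, was separated in the same way, with a difference of -0.40 ± 0.08 (SE; adjusted p = 0.0037) against WT Tu, and it shares 774 bases with the more abundant Ctsb on the opposite strand, so its level is uncertain. Ebp had 29.8, 27.2 and 27.2 FPKM in CKO Tu, 17.7, 21.7 and 20.7 FPKM in WT Tu, and 15.1, 16.8 and 16.98 FPKM in WT DMSO. Ebp, a sterol isomerase, was above both WT groups in every CKO Tu library, by 0.47 ± 0.08 (SE; adjusted p = 0.0027) against WT Tu. The smaller Ebp difference between WT Tu and WT DMSO (0.28 ± 0.08, SE) lost its call without WT Tu replicate 2 or 3 or any WT DMSO library (adjusted p between 0.055 and 0.1). Ebp and Nsdhl are X-linked, and the sex-linked transcripts separate CKO Tu from WT as given above. Cyp51 had 23.9, 26.96 and 27.997 FPKM in CKO Tu, 23.2, 22.98 and 24.1 FPKM in WT Tu, and 34.8, 32.7 and 32.9 FPKM in WT DMSO. Cyp51, lanosterol demethylase, was higher in all WT DMSO libraries than in any library with tunicamycin, with a difference of -0.50 ± 0.07 (SE; adjusted p = 0.00054) between WT Tu and WT DMSO. Without CKO Tu replicate 1 it was also called higher in CKO Tu than in WT Tu, by 0.22 (adjusted p = 0.026), as it was with total-fragment scaling (0.21, adjusted p = 0.035) and with the GC trend removed (0.18, adjusted p = 0.044). Dhcr7 had 5.1, 4.71 and 4.9 FPKM in CKO Tu, 4.76, 4.05 and 5.1 FPKM in WT Tu, and 7.74, 7.04 and 7.24 FPKM in WT DMSO. Dhcr7, the reductase of the final step, was separated in the same way, with a difference of -0.57 ± 0.08 (SE; adjusted p = 0.00077) between WT Tu and WT DMSO and 0.07 ± 0.08 (SE; adjusted p = 0.52) between CKO Tu and WT Tu.

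Sqle, squalene epoxidase, had 33.9 ± 1.54 FPKM in CKO Tu, 30.9 ± 2.51 FPKM in WT Tu and 23.7 ± 2.12 FPKM in WT DMSO (SD, n = 3) and was higher in WT Tu than in WT DMSO by 0.37 ± 0.08 (SE; adjusted p = 0.008). Nsdhl, a decarboxylating sterol dehydrogenase, had 8.23 ± 0.779 FPKM in CKO Tu, 7.71 ± 0.195 FPKM in WT Tu and 9.14 ± 0.487 FPKM in WT DMSO (SD, n = 3). Its lower level in WT Tu than in WT DMSO (-0.22 ± 0.07, SE) passed narrowly, at an adjusted p of 0.045, and lost the call when any 1 of the 6 libraries was left out (between 0.056 and 0.14). Without CKO Tu replicate 2 it was called lower in CKO Tu than in WT DMSO, with a difference of -0.21 (adjusted p = 0.043), as it was with total-fragment scaling (adjusted p = 0.044). Tm7sf2, a sterol reductase, had 5.96 ± 0.558 FPKM in CKO Tu, 6.12 ± 0.472 FPKM in WT Tu and 6.91 ± 0.385 FPKM in WT DMSO (SD, n = 3), and was not called in any comparison on the deposited scale with all libraries. It was called lower in CKO Tu than in WT DMSO without CKO Tu replicate 1 (-0.25, adjusted p = 0.039), with quantile normalization (adjusted p = 0.04) and with total-fragment scaling (adjusted p = 0.035), and lower in WT Tu than in WT DMSO with total-fragment scaling (adjusted p = 0.036). Its gene span, introns included, shares 9356 bases with that of Vps51 on the same strand, and its level is uncertain for that reason.

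**Figure D3:**
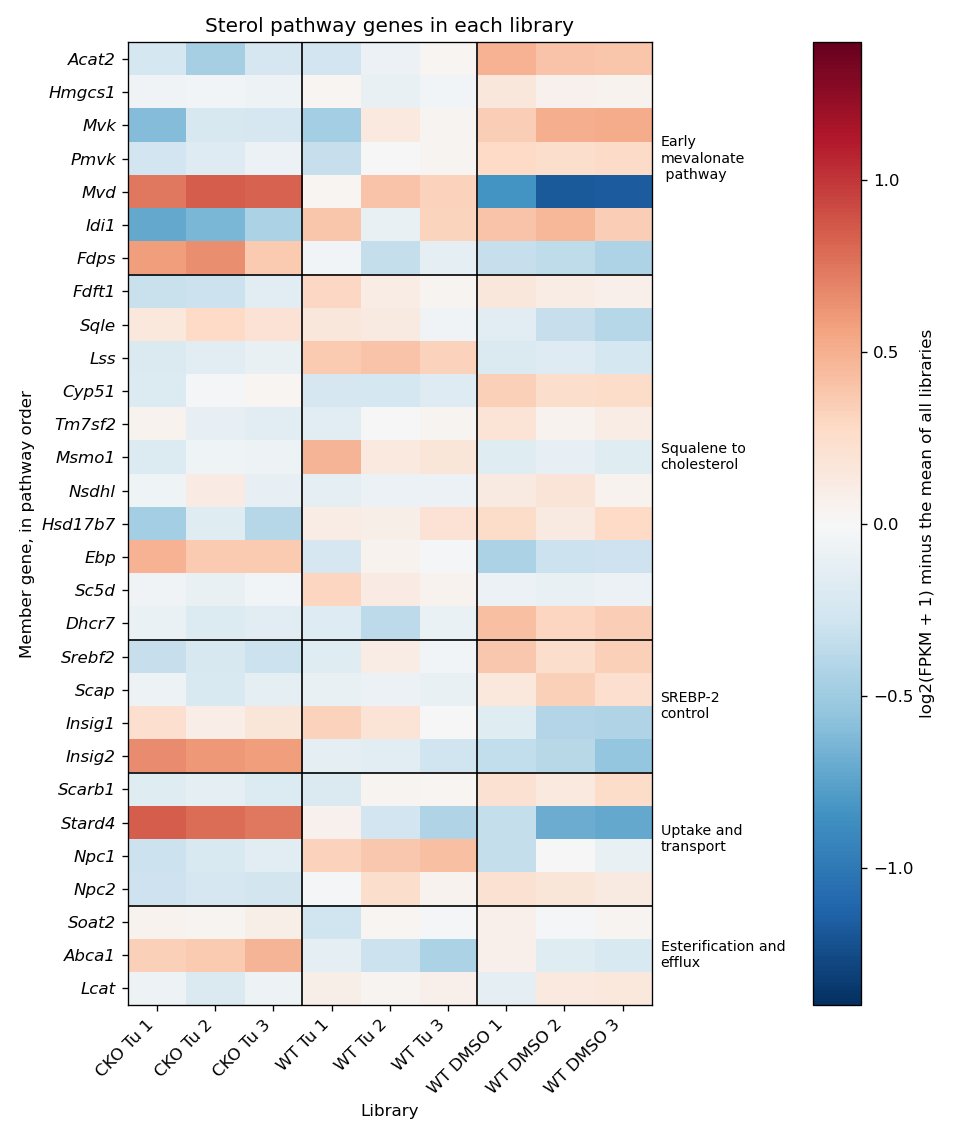
Difference of log2(FPKM + 1) from the mean of all 9 libraries for the 29 tested genes, in pathway order down the page and with CKO Tu, WT Tu and WT DMSO libraries from left to right. Mvd, Insig2 and Stard4 are high in the 3 CKO Tu libraries, Idi1 and Hsd17b7 low there, and Lss, Msmo1 and Npc1 high in the 3 WT Tu libraries.

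Of the 4 genes that control SREBP-2, WT Tu had 2 higher and 2 lower than WT DMSO, and CKO Tu had 1 higher and 1 lower than WT Tu. Over all genes tested, 33.6% and 38.3% were called in these comparisons. Srebf2 had 15.1, 16.3 and 15.3 FPKM in CKO Tu, 16.9, 20.6 and 18.7 FPKM in WT Tu, and 25.1, 22.8 and 24.3 FPKM in WT DMSO. Srebf2, which encodes SREBP-2, was in this order of groups lowest, middle and highest, with no overlap. The difference was -0.35 ± 0.08 (SE; adjusted p = 0.0081) between WT Tu and WT DMSO. Between CKO Tu and WT Tu it was -0.25 ± 0.08 (SE; adjusted p = 0.031), a call lost without WT Tu replicate 2 or 3 or CKO Tu replicate 1 or 3 (adjusted p between 0.069 and 0.099), with no filter (adjusted p = 0.063) or with total-fragment scaling (adjusted p = 0.1). Scap had 11.6, 10.4 and 11.1 FPKM in CKO Tu, 11.3, 11.5 and 11.4 FPKM in WT Tu, and 13.7, 15.7 and 14.6 FPKM in WT DMSO. Scap, the escort, was higher in each WT DMSO library than in any library with tunicamycin, and the groups with tunicamycin overlapped. It differed by -0.33 ± 0.06 (SE; adjusted p = 0.0039) between WT Tu and WT DMSO and by -0.05 ± 0.06 (SE; adjusted p = 0.6) between CKO Tu and WT Tu, and the first call was lost when a trend on GC content was removed (-0.13, adjusted p = 0.25).

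Insig1 had 87.9, 79.7 and 84.1 FPKM in CKO Tu, 93.4, 85.3 and 74.1 FPKM in WT Tu, and 66.5, 56.2 and 55.3 FPKM in WT DMSO. Insig1, an ER retention factor whose gene is also a target of SREBP, was the most abundant of the 4, and both groups with tunicamycin lay above WT DMSO and overlapped each other. The difference was 0.50 ± 0.10 (SE; adjusted p = 0.0049) between WT Tu and WT DMSO and -0.00084 ± 0.10 (SE; adjusted p = 1) between CKO Tu and WT Tu. Insig2 had 32.1, 30.98 and 30.6 FPKM in CKO Tu, 18.1, 17.7 and 16.3 FPKM in WT Tu, and 15.6, 15.04 and 13.4 FPKM in WT DMSO. Insig2, the second retention factor (ENSMUSG00000003721, mm10 chromosome 1, 121304353 to 121332589), was higher in each CKO Tu library than in any WT library, at 1.8 times the WT Tu mean. It differed by 0.81 ± 0.07 (SE; adjusted p = 4.8e-05) between CKO Tu and WT Tu. The call of its smaller difference between WT Tu and WT DMSO (0.23 ± 0.07, SE) was lost without WT DMSO replicate 2 or 3 or WT Tu replicate 1 or 2 (adjusted p between 0.055 and 0.097).

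Among the 4 tested genes of uptake and transport, WT Tu had 1 higher and 1 lower than WT DMSO, and CKO Tu had 1 higher and 2 lower than WT Tu. These are 50% and 75% of the 4, beside 33.6% and 38.3% of all genes tested. Stard4 had 19.4, 18.5 and 17.8 FPKM in CKO Tu, 10.8, 8.43 and 7.47 FPKM in WT Tu, and 8.02, 6.01 and 5.9 FPKM in WT DMSO. Stard4, a soluble protein that carries sterol between membranes, was at 2.09 times the WT Tu mean in CKO Tu, with no overlap, while the WT groups overlapped. It differed by 1.00 ± 0.14 (SE; adjusted p = 0.00064) between CKO Tu and WT Tu and by 0.37 ± 0.14 (SE; adjusted p = 0.066) between WT Tu and WT DMSO. The difference between WT Tu and WT DMSO passed the threshold without WT DMSO replicate 1 (0.49, adjusted p = 0.024) or WT Tu replicate 3 (0.47, adjusted p = 0.034), and with voom on fragments (0.42, adjusted p = 0.03). Npc1 had 28.1, 29.8 and 30.9 FPKM in CKO Tu, 43.7, 45.4 and 46.7 FPKM in WT Tu, and 27.3, 34.7 and 32.4 FPKM in WT DMSO. Npc1, the lysosomal membrane protein that exports cholesterol, was higher in every WT Tu library than in any other library, and CKO Tu and WT DMSO overlapped. It differed by 0.52 ± 0.08 (SE; adjusted p = 0.0019) between WT Tu and WT DMSO and by -0.60 ± 0.08 (SE; adjusted p = 0.00081) between CKO Tu and WT Tu. Npc2, the soluble lysosomal partner of Npc1, had 10.7 ± 0.240 FPKM in CKO Tu, 13.97 ± 1.45 FPKM in WT Tu and 14.7 ± 0.444 FPKM in WT DMSO (SD, n = 3). It was lower in CKO Tu than in WT Tu, with a difference of -0.36 ± 0.07 (SE; adjusted p = 0.0047), and was not called between WT Tu and WT DMSO (-0.07 ± 0.07, SE). Scarb1, the receptor for high-density lipoprotein, had 9.44 ± 0.245 FPKM in CKO Tu, 10.3 ± 1.03 FPKM in WT Tu and 12.4 ± 0.551 FPKM in WT DMSO (SD, n = 3) and was lower in WT Tu than in WT DMSO, with a difference of -0.25 ± 0.07 (SE; adjusted p = 0.029), a call lost without WT DMSO replicate 1 (adjusted p = 0.069) or 3 (adjusted p = 0.098). Without WT Tu replicate 1 it was called lower in CKO Tu than in WT Tu, with a difference of -0.19 (adjusted p = 0.023).

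Of the esterification and efflux genes, 0 of the 3 tested were called between WT Tu and WT DMSO with limma, 0 at an unadjusted p below 0.05 and 0 with voom on fragments. Between CKO Tu and WT Tu 1 was called, or 33.3%. Of all genes tested, 33.6% were called between WT Tu and WT DMSO and 38.3% between CKO Tu and WT Tu. Abca1 had 5.01, 5.15 and 5.61 FPKM in CKO Tu, 3.36, 2.87 and 2.51 FPKM in WT Tu, and 4.01, 3.23 and 3.11 FPKM in WT DMSO. Abca1, which exports cholesterol to nascent high-density lipoprotein, was higher in each CKO Tu library than in any WT library, by 0.68 ± 0.10 (SE; adjusted p = 0.0012) against WT Tu, while the WT groups overlapped (-0.19 ± 0.10, SE). Soat2, the hepatocyte enzyme that esterifies cholesterol for storage and for secretion in lipoproteins, had 50.4 ± 0.776 FPKM in CKO Tu, 45.7 ± 5.19 FPKM in WT Tu and 49.5 ± 1.42 FPKM in WT DMSO (SD, n = 3). Lcat, the secreted enzyme that esterifies cholesterol on high-density lipoprotein, was the most abundant of this set with 56.4 ± 3.1 FPKM in CKO Tu, 63.9 ± 1.04 FPKM in WT Tu and 63.6 ± 6.84 FPKM in WT DMSO (SD, n = 3). Neither passed the threshold in any comparison on the deposited scale with all libraries. Lcat was called lower in CKO Tu than in WT DMSO without WT DMSO replicate 1 (-0.26, adjusted p = 0.0091) and with total-fragment scaling (-0.24, adjusted p = 0.029).

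**Figure D4:**
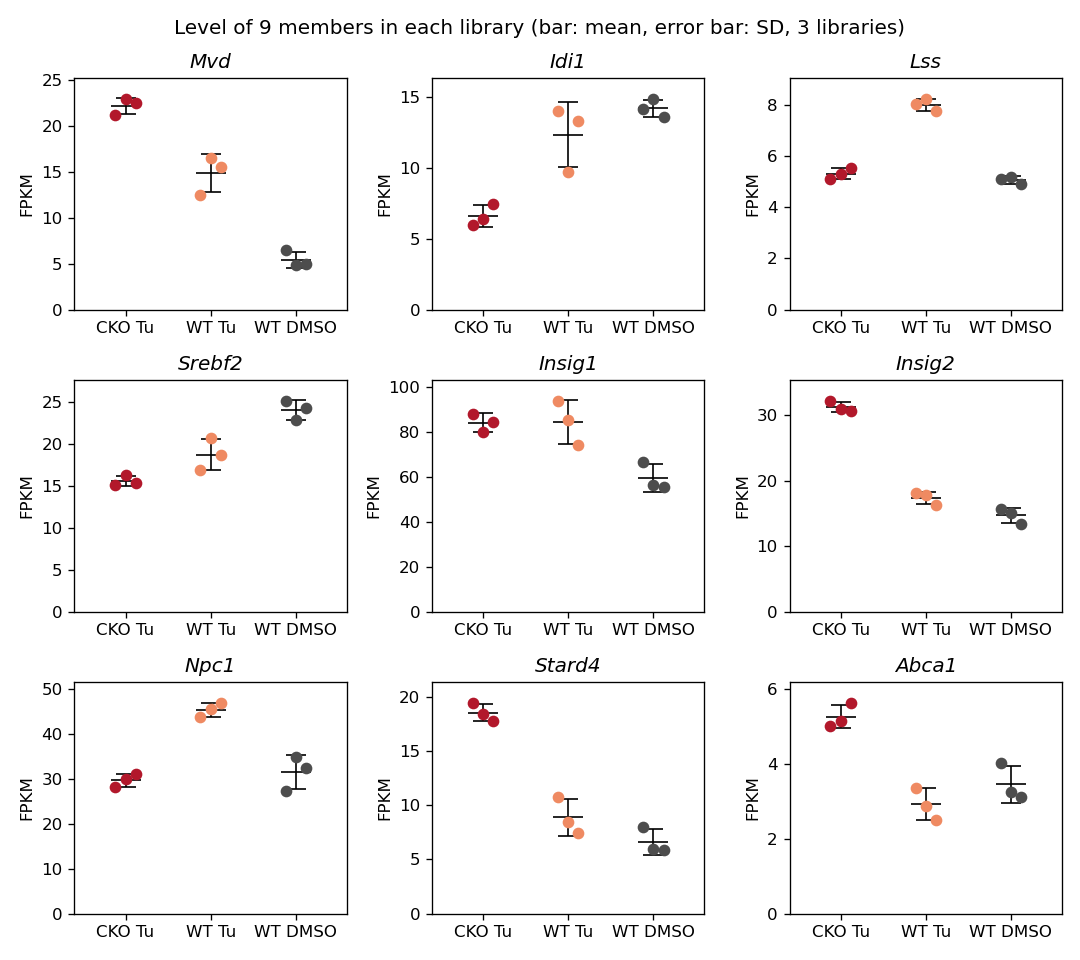
FPKM of 9 genes in each library of CKO Tu, WT Tu and WT DMSO, with the mean as a bar and the SD of 3 libraries as the error bar, on axes that start at 0. Lss and Npc1 are highest in WT Tu, Idi1 is lowest in CKO Tu, and Mvd, Insig2, Stard4 and Abca1 are highest in CKO Tu.

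CKO Tu also differed from WT DMSO, a comparison of the deletion, the drug and the sex-linked pattern at once. Here 8 of the 29 genes were higher, 12 lower and 9 not called, a share of 69.0% beside 49.5% of all genes tested, of which 25.3% were higher and 24.2% lower. The libraries did not overlap for 21 genes, beside 63.0% of all genes tested. The median difference was -0.14, beside 0.0008 for all genes tested. The largest were in Mvd (1.86 ± 0.12), Stard4 (1.37 ± 0.14), Insig2 (1.04 ± 0.07), Fdps (0.90 ± 0.11) and Ebp (0.75 ± 0.08), all higher, and in Idi1 (-1.002 ± 0.13), Mvk (-0.81 ± 0.17), Acat2 (-0.74 ± 0.09), Srebf2 (-0.60 ± 0.08) and Hsd17b7 (-0.57 ± 0.09), all lower (SE). Their adjusted p lay between 3.7e-06 and 0.0037. In Mvd the mean was 4.09 times that of WT DMSO, and in Idi1 0.466 times.

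Set side by side, the calls of WT Tu against WT DMSO and of CKO Tu against WT Tu fall into several patterns. These comparisons share the WT Tu libraries, so a deviation in those libraries enters both with opposite sign, and the patterns are given as a description. Mvd, Ebp and Insig2 were called higher in both. Lss, Msmo1, Sc5d and Npc1 were called higher in WT Tu than in WT DMSO and lower in CKO Tu than in WT Tu. For these 4, CKO Tu against WT DMSO gave 0.06 ± 0.06, 0.04 ± 0.09, 0.03 ± 0.07 and -0.08 ± 0.08 (SE), with adjusted p between 0.42 and 0.78. Srebf2 was called lower in both. Acat2, Mvk, Pmvk, Cyp51, Nsdhl, Dhcr7, Scap and Scarb1 were called lower in WT Tu than in WT DMSO only. Fdps, Stard4 and Abca1 were called higher, and Idi1, Fdft1, Hsd17b7 and Npc2 lower, in CKO Tu against WT Tu only. Sqle and Insig1 were called higher in WT Tu than in WT DMSO only, and Hmgcs1, Tm7sf2, Soat2 and Lcat in neither comparison.

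Genes next to this pathway were read from lists of related functions. Their counts stand beside 33.6% of all genes tested that were called between WT Tu and WT DMSO and 38.3% between CKO Tu and WT Tu. Of 11 genes for SREBP processing and sterol-dependent degradation, 3 were higher and 1 lower in WT Tu than in WT DMSO, led by Erlin1, an ER membrane protein that restrains SREBP, at 1.38 ± 0.10 (SE; adjusted p = 1.5e-05), and Tmem97, a sterol-responsive membrane protein, at 0.64 ± 0.04 (SE; adjusted p = 9.3e-06). In CKO Tu 2 were higher and 1 lower than in WT Tu, with Rnf139, a sterol-sensing ubiquitin ligase, at 0.42 ± 0.11 (SE; adjusted p = 0.013) and Erlin1 at -0.33 ± 0.10 (SE; adjusted p = 0.025). Of 9 tested genes of intracellular sterol transport, 6 were higher in WT Tu than in WT DMSO and 3 not called, led by Osbp, an oxysterol-binding transfer protein, at 1.23 ± 0.06 (SE; adjusted p = 1.2e-06), and Lipa, the lysosomal lipase that frees cholesterol from esters, at 0.76 ± 0.13 (SE; adjusted p = 0.0025). In CKO Tu 1 was higher and 1 lower than in WT Tu, with Nceh1, a neutral cholesterol ester hydrolase, at -1.27 ± 0.08 (SE; adjusted p = 8.5e-06) and Osbp at 0.21 ± 0.06 (SE; adjusted p = 0.016).

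Of 5 genes that donate electrons to sterol enzymes, 1 was higher and 1 lower in WT Tu than in WT DMSO, Cyb5b at 0.86 ± 0.10 (SE; adjusted p = 0.00035) and Por at -0.32 ± 0.10 (SE; adjusted p = 0.046). In CKO Tu 1 was higher and 1 lower than in WT Tu, Cyb5a at 0.24 ± 0.05 (SE; adjusted p = 0.0067) and Cyb5r3 at -0.83 ± 0.06 (SE; adjusted p = 1.8e-05). Both Cyb5a and Cyb5b encode cytochrome b5 forms, and Cyb5r3 encodes their reductase. Of 11 genes of the isoprenoid branches, which draw on the mevalonate pathway before squalene, 3 were higher and 2 lower in WT Tu than in WT DMSO. Dhdds and Nus1, the subunits of the enzyme that makes dolichol chains for N-glycosylation, led at 0.85 ± 0.08 (SE; adjusted p = 5.7e-05) and 0.73 ± 0.07 (SE; adjusted p = 6.6e-05). In CKO Tu 1 was higher and 3 lower than in WT Tu, led by Zmpste24, a protease of prenylated lamin A, at -0.42 ± 0.11 (SE; adjusted p = 0.015) and Pggt1b, a prenyltransferase subunit, at -0.37 ± 0.09 (SE; adjusted p = 0.01).

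Of 4 tested genes of LXR signalling, efflux and oxysterols, 0 were called between WT Tu and WT DMSO with limma, 0 at an unadjusted p below 0.05 and 0 with voom, and 3 were higher in CKO Tu than in WT Tu. Cyp7b1, an oxysterol hydroxylase, differed by 3.30 ± 0.09 (SE; adjusted p = 4.6e-08) and Nr1h2, which encodes LXR beta, by 0.59 ± 0.11 (SE; adjusted p = 0.0029). The mean of Cyp7b1 was 20.1 FPKM in CKO Tu, 1.14 in WT Tu and 1.11 in WT DMSO. The sex-linked transcripts separate the same groups, so deletion and sex-linked pattern cannot be told apart for these genes. Lrp1, a receptor for remnant lipoproteins, differed by -0.99 ± 0.09 (SE; adjusted p = 5.5e-05) between WT Tu and WT DMSO and by 0.71 ± 0.09 (SE; adjusted p = 0.00035) between CKO Tu and WT Tu. Of 10 tested genes of SREBP-1 and fatty acid synthesis, 5 were lower in WT Tu than in WT DMSO and 5 not called, led by Gpam, which starts glycerolipid synthesis, at -0.95 ± 0.07 (SE; adjusted p = 2e-05) and Elovl6, a fatty acid elongase, at -0.87 ± 0.12 (SE; adjusted p = 0.00075). In CKO Tu 3 were higher and 2 lower than in WT Tu, with Thrsp, a regulator of lipogenesis, at 1.74 ± 0.08 (SE; adjusted p = 1.1e-06) and Scd1, the stearoyl-CoA desaturase, at -0.45 ± 0.06 (SE; adjusted p = 0.00046). All of these differences are on the log2(FPKM + 1) scale.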

How the data were processed

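RNA of 9 libraries was sequenced, 3 per group. Per the submitters' processing notes, HISAT2 2.2.1, featureCounts 1.5.0-p3 and mm10 were used, and the authors deposited FPKM for 54532 genes. The annotation release and strand setting are not given in the sources used here. Multiplied by gene length, the FPKM of a library fell on whole steps (tolerance 0.01 fragments, 100% of values), which gave back fragments per gene. The sizes behind FPKM were 0.948 to 1.07 times the recovered totals. The 11858 genes that reached FPKM 1 in 3 or more libraries were fitted as log2(FPKM + 1), which understates changes of low genes, with limma 3.58.1 in R 4.3.3 (all 9 libraries, group means, intensity trend). Tests were two-sided, with Benjamini-Hochberg adjustment over all genes tested in each of 3 comparisons and a threshold of 0.05. The fit was also run on simulated counts, with the outcome not reported here. Both groups with tunicamycin were given the same changes there, so no difference between CKO Tu and WT Tu was simulated. Nothing in the labels ties replicates to separate animals or cultures, and p-values then measure only how these libraries vary, which may be technical. The genes, lists, tests and alternatives were chosen with earlier results of these data known. Library values were given for the 5 called genes per direction and comparison that changed most and for the SREBP-2 control genes, and for each related list the 2 called genes with the largest change were named. Some members of the related lists are not reported here. Same-numbered replicates did not deviate together. Promoters came from RefSeq (GRCm38.p6) and GC content from GENCODE M21. Overlaps were taken from the gene positions deposited with the FPKM and count whole gene spans, introns included. PCR duplicates cannot be recognised in these values.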

Additional observations from a re-analysis of the deposited data

How the results depend on the processing

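Each comparison was recomputed under 16 alternatives: a pseudocount of 0.1, no filter, a filter at FPKM of 5, quantile normalization, scaling to total fragments, only the groups compared, the replicate block, no intensity trend, voom on the recovered fragments, each library left out, and a correction for GC content (lowess, span 0.3) that was added after seeing the data. No called gene reversed. Between WT Tu and WT DMSO, 6 of 9 higher and 4 of 9 lower calls were kept under every alternative in which the gene was tested, between CKO Tu and WT Tu 6 of 6 and 7 of 9, and between CKO Tu and WT DMSO 8 of 8 and 12 of 12. Fdps and Mvk were below the filter at FPKM of 5 and so had 15 alternatives, and with that filter 5 genes were higher in CKO Tu than in WT Tu, and 7 higher and 11 lower in CKO Tu than in WT DMSO. The number lower in WT Tu than in WT DMSO was 5 with no filter and 5 with only the groups compared. The fit of fewer libraries has a less certain spread, and the cause of the drop with no filter was not tested. With libraries left out singly, that number was 5 to 8 and the number higher 6 to 9. Likewise 6 to 7 were higher and 7 to 13 lower in CKO Tu than in WT Tu (13 without WT Tu replicate 1), and 8 higher and 12 to 13 lower in CKO Tu than in WT DMSO.

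With the replicate block, 10 genes were higher and 9 lower in WT Tu than in WT DMSO, 6 higher and 8 lower in CKO Tu than in WT Tu, and 8 higher and 12 lower in CKO Tu than in WT DMSO. Of all genes, 3696, 4248 and 5683 were then called in that order, against 3981, 4538 and 5869 without the block. The numbers do not pair the libraries: correlations of deviations were -0.0967 to 0.0208 for 9 same-numbered pairs and -0.0608 to 0.104 for 18 others. Log2 changes followed GC content with Spearman's rho of -0.345, 0.0929 and -0.173 across genes, which are not independent, in the same order. Fragment counts of 8 to 22 over 3 libraries for Mylip and 7 to 12 for Soat1 set the limit of detection.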
